A study of Rattus norvegicus with 172 samples.

Results

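Gstp1, Gpx2, Ggt1, Afp and Gpc3 were taken here as markers of altered rat hepatocytes. The RNA of these 5 genes was followed in the liver of every rat of a furan and a 3-methylfuran experiment. The genes were chosen by symbol, with earlier results of these data known, and all 5 were found among the 32883 genes of both count tables. They are Gstp1 (ENSRNOG00000018237), Gpx2 (ENSRNOG00000055672), Ggt1, Afp and Gpc3 in the deposited tables. Liver RNA of 70 male Fischer 344 rats was sequenced after 90 days of exposure. The furan experiment held 8 control rats without furan, 8 rats at 0.03, 8 at 0.12, 7 at 0.5 and 7 at 2.0 mg furan per kg body weight per day. For 3-methylfuran there were 8 separate control rats and 8 rats each at 0.02, 0.075 and 1.0 mg 3-methylfuran per kg body weight per day. Furan is a small oxygen-containing ring that forms when food is heated, and 3-methylfuran is the same ring with a methyl group. The experiments used different library kits and different doses, so values of the compounds are set side by side and no difference between the compounds was tested. Each dose is labelled with a diet letter, all livers were flash-frozen, and the age of the rats was not given in the labels. P-values measure the spread between these rats.

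In rats exposed to liver carcinogens, small groups of hepatocytes turn on genes that normal adult hepatocytes hold at low levels. Gstp1, the placental form of glutathione S-transferase, is the classical marker of such foci and joins glutathione to reactive compounds. Ggt1, gamma-glutamyltransferase, splits glutathione at the cell surface, and it is also present on bile duct cells. Gpx2 is a selenium-containing glutathione peroxidase known best from the gut lining. Afp, alpha-fetoprotein, is the main serum protein of the fetal liver, and Gpc3, glypican 3, is a cell surface proteoglycan of fetal liver and of liver tumors. The factor NRF2 drives genes of electrophile defense through antioxidant response elements, and Gstp1 is also known as a target of AP-1.

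The stretches just upstream of Gstp1 and Gpx2 are shown because these members had the largest log2 fold changes at both highest doses. They were also the only members whose windows held the antioxidant response element core. Between rats of those doses Gpx2 went at least as closely with Ggt1 as with Gstp1. A link between motif and level was not tested. RefSeq promoter sequences (build GRCr8) were found for all 5 genes, and the 250 bases before each start were searched on both strands for the antioxidant response element core TGACNNNGC, the AP-1 site TGANTCA, the TATA box TATAAA and the HNF1 motif GTTAAT. The Gstp1 window is chr1:210769706-210769955 on the minus strand, and the Gpx2 window is chr6:101230034-101230283 on the minus strand. Capitals mark the antioxidant response element core.
Gstp1: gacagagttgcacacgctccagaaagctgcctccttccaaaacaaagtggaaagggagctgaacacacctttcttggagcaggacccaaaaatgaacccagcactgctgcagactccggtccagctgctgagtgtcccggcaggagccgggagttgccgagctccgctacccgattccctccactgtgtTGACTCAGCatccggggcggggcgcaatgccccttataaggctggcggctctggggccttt
Gpx2: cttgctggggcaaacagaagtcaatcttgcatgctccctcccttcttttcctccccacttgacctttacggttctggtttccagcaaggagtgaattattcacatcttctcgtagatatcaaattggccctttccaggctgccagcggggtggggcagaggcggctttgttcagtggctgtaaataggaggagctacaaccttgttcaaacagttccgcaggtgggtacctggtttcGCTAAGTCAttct
In Gstp1 the core lay 61 to 53 bases before the start, and the same letters held an AP-1 site 61 to 55 bases before it. In Gpx2 the core lay 13 to 5 bases before the start and reads on the opposite strand, so the capitals show its reverse complement. The Afp window (chr14:17875646-17875895, minus strand) held neither of these, but a TATA box 37 to 32 bases and an HNF1 motif 135 to 130 bases before the start. The Ggt1 and Gpc3 windows held none of the 4 motifs. Among 33469 rat promoter windows of the same length, 10.1% held the antioxidant response element core, 6.34% an AP-1 site, 12.9% a TATA box and 6.45% the HNF1 motif. Each match is a match of letters, and no binding was measured.

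Total counts per rat ran from 11410459 to 27664338 for furan and from 11084613 to 50047098 for 3-methylfuran. Levels are counts-per-million values (CPM), scaled by TMM, a factor that sets most genes equal between libraries. This factor was 1.021 to 1.405 at furan 2.0 beside 0.894 to 0.963 in its controls, so rises and falls at that dose are relative to the bulk of genes. Tests used edgeR's quasi-likelihood test with Benjamini-Hochberg adjustment over all genes tested (12727 for furan, 11930 for 3-methylfuran), and called genes are those whose adjusted p was below 0.05. All 5 members passed the filter on low counts in the furan table, and 4 of 5 passed in the 3-methylfuran table, where Ggt1 was too low. Whole liver was measured, so a change in the number of expressing cells and a change of RNA per cell cannot be told apart. Of the 6 hepatocyte markers listed, none was at 0 in any group.

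Every member was higher at furan 2.0 than in its controls. Because the members were chosen with earlier results of these data known, the shares below are a description and not a test. At that dose 5 of 5 members were called higher by edgeR, where 24% of all genes tested were called higher, 22.5% lower and 46.5% in either direction. At 3-methylfuran 1.0, 3 of the 4 members tested were called higher, beside 21.2% of all genes tested called higher, 22.5% lower and 43.6% in either direction. These shares depend on the scaling: with libraries scaled by total count alone, 68.2% of all genes were called higher and 6.07% lower at furan 2.0, and 51% higher and 7.74% lower at 3-methylfuran 1.0, with the same calls for the members. Median log2 fold change of the members was 2.23 at furan 2.0 and 1.86 at 3-methylfuran 1.0, beside 0.02 and 0 over all genes tested. At each of the 5 lower doses 0 members were called by edgeR, beside 0.0707%, 1.94% and 3.16% of all genes at furan 0.03, 0.12 and 0.5 and 0.0335% and 1.37% at 3-methylfuran 0.02 and 0.075. At an unadjusted edgeR p under 0.05 there were 0, 2 and 3 members for furan (Gpx2 and Gpc3 at 0.12, and both with Afp at 0.5), beside 9.13%, 13.9% and 17.1% of all genes. For 3-methylfuran there were 1 and 0 (Afp at 0.02), beside 7.09% and 13.4% of all genes at that unadjusted threshold. The members differed in pattern: Gstp1, Gpx2 and Afp were called higher at both highest doses, and Gpc3 only at furan 2.0. Ggt1 was called at furan 2.0 and was outside the 3-methylfuran fit.

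**Figure D1:**
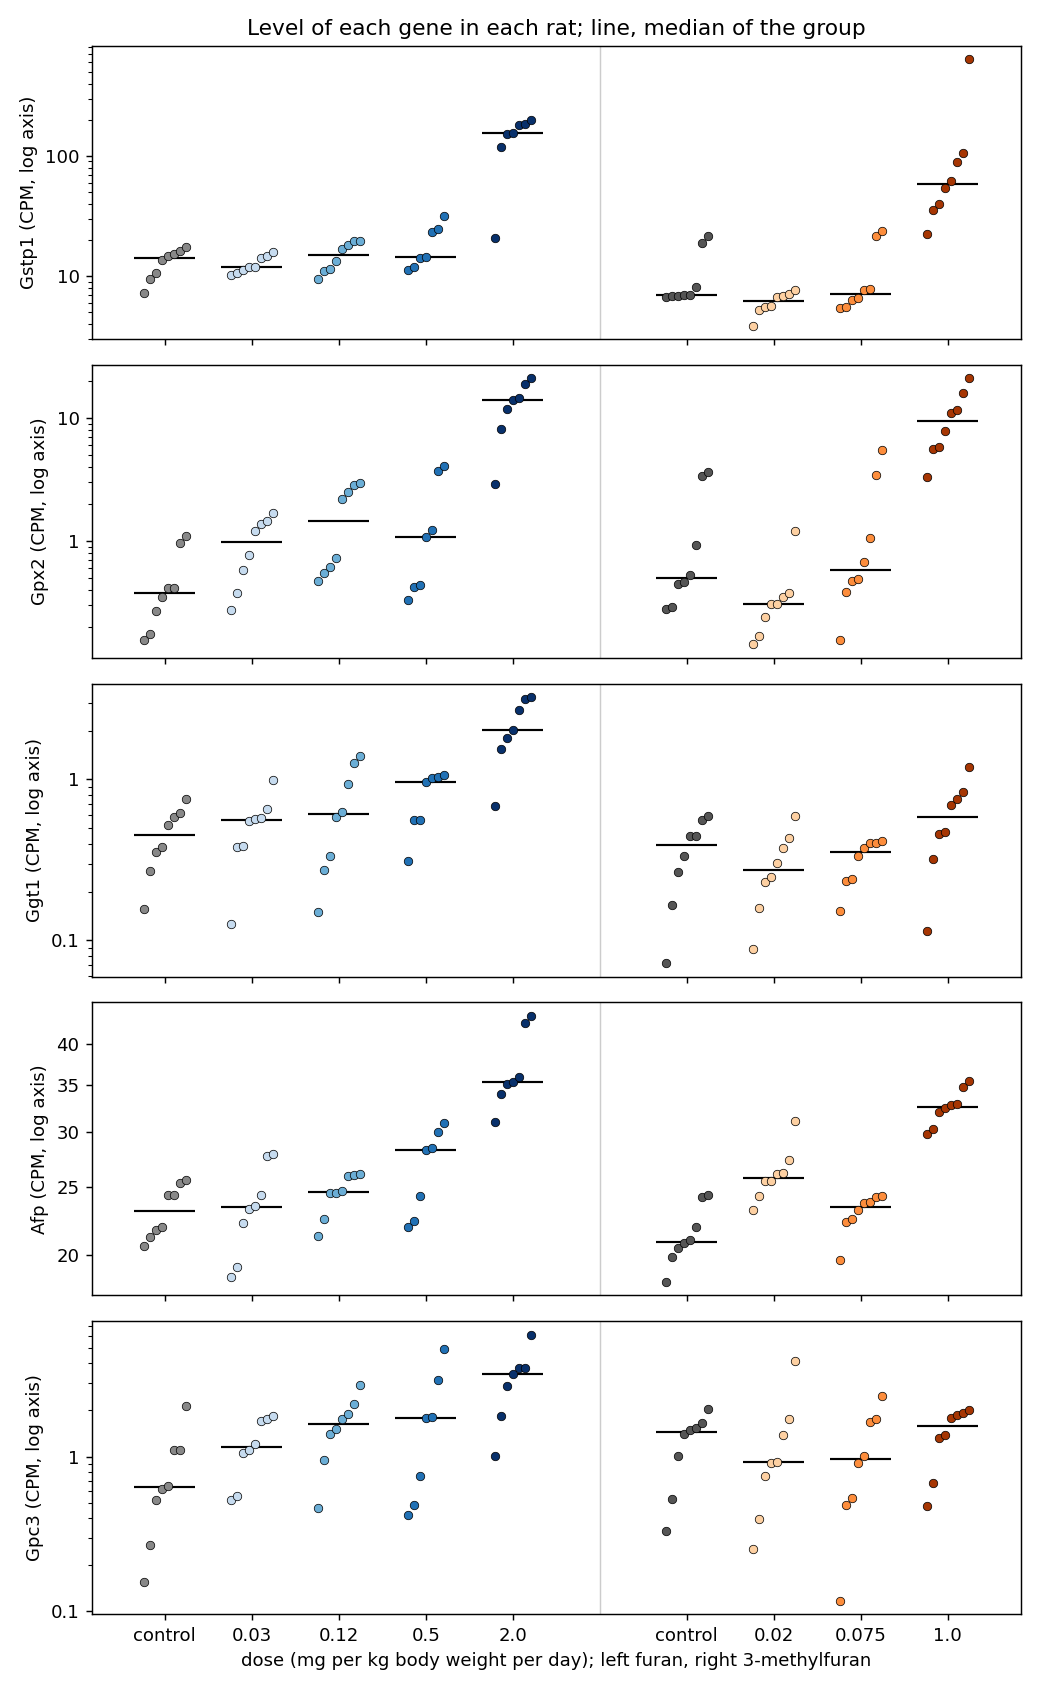
Level of each of the 5 genes in each of the 70 rats, as CPM on a log axis, by dose in mg per kg body weight per day (furan left, 3-methylfuran right); points are rats and lines are group medians. Gstp1 and Afp at furan 2.0 and at 3-methylfuran 1.0 lie above every control, while Gpc3 at 3-methylfuran 1.0 overlaps its controls. The share of all genes that separate in this way was not counted.

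Gstp1 in furan controls was at 7.29, 14.1 and 17.4 CPM (lowest, median and highest of 8 rats). At furan 0.03 it was 10.2, 12 and 15.9 CPM, at 0.12 it was 9.5, 15 and 19.7 CPM, and at 0.5 it was 11.3, 14.5 and 31.9 CPM. At furan 2.0 the 7 rats spanned 20.9, 154 and 198 CPM. Every rat at 2.0 stood above the highest control, and 6 of them stood far above; the exception was ME086_L, the rat with 20.9 CPM. The mean rose from 13 ± 3.55 to 144 ± 60.3 CPM (SD, n = 8 and 7), an edgeR log2 fold change of 3.46 ± 0.29 (SE; adjusted p = 5.33e-11). At 0.5 the edgeR log2 fold change was 0.53 ± 0.29 (adjusted p = 0.356), and 3 of 7 rats were above the highest control: MD072_L at 23.4, MD063_L at 24.8 and MD069_L at 31.9 CPM. At 0.12 also 3 of 8 rats were above it, by little (18.2 to 19.7 CPM), with an edgeR log2 fold change of 0.19 ± 0.28 (adjusted p = 0.84). Furan 2.0 differed from 0.5 by 2.93 ± 0.3 on the log2 scale (edgeR adjusted p = 1.82e-08). No pair among control, 0.03, 0.12 and 0.5 was called by the same test.

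In the 3-methylfuran experiment Gstp1 in control rats was 6.75, 6.96 and 21.6 CPM (lowest, median, highest of 8). Of that group, 6 rats lay between 6.75 and 8.05 CPM, and MC511L (18.7 CPM) and MC508L (21.6 CPM) stood apart. The same split occurred at 0.075, where 6 rats lay between 5.44 and 7.76 CPM and MB551L and MB549L were at 21.5 and 23.8 CPM. Whether these 4 libraries carry the right labels was not tested. At 0.02 all 8 rats were low, at 3.87, 6.19 and 7.73 CPM. At 1.0 the 8 rats spanned 22.3, 58.1 and 638 CPM, and each of them was above the highest control. The rat at 638 CPM was ME587L, and the next highest, ME583L, was at 105 CPM. The edgeR log2 fold change was 3.68 ± 0.59 (SE; adjusted p = 8.94e-06), and without ME587L it was 2.51, still called. Without the 4 rats that stood apart in the control and 0.075 groups it was 4.21; since those rats were picked by their Gstp1 after seeing the data, this value is a description. At 0.02 and 0.075 it was -0.75 ± 0.64 and 0.11 ± 0.58 (edgeR adjusted p = 0.874 and 0.958). Without the 4 rats these values were -0.22 and -0.13.

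Gpx2 also rose at the highest doses, from a lower level than Gstp1. In furan controls it was 0.156, 0.38 and 1.1 CPM, which is 2 to 16 counts per rat. At 2.0 it was 2.88, 14.1 and 21.1 CPM, with all 7 rats above the highest control and ME086_L again the lowest. The edgeR log2 fold change was 4.75 ± 0.53 (SE; adjusted p = 8.75e-09), the largest of the 5 members in either experiment. Lower furan doses gave medians of 0.983, 1.46 and 1.07 CPM at 0.03, 0.12 and 0.5, and 4 of 8, 4 of 8 and 3 of 7 rats stood above the highest control. By edgeR the log2 fold changes there were 1.02 ± 0.63, 1.7 ± 0.6 and 1.75 ± 0.6, with adjusted p of 0.663, 0.148 and 0.102. DESeq2 on the same counts called Gpx2 at 0.12 and 0.5 (adjusted p = 0.045 and 0.0395), where it called 1.61% and 2.32% of genes higher. The authors' deposited table also lists Gpx2 below 0.05 at both doses (adjusted p = 0.046 and 0.0445, where it lists 1.9% and 2.89% of its genes), with fold changes of 1.01 and 1.02 beside 3.26 and 3.37 from the edgeR fit. How the deposited fold changes were computed, shrinkage included, was not stated, so these folds may not be on the same scale. Gpx2 at 2.0 was above 0.5 by 3 ± 0.47 on the log2 scale (edgeR adjusted p = 1.1e-05).

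For 3-methylfuran, Gpx2 was 0.278, 0.498 and 3.65 CPM in controls and 3.33, 9.4 and 21 CPM at 1.0. The control rats MC511L (3.36 CPM) and MC508L (3.65 CPM) were the highest of their group for Gpx2 as for Gstp1, and they overlapped ME591L at 1.0 (3.33 CPM). At 0.075 the same held of MB551L (3.43 CPM) and MB549L (5.51 CPM), beside 0.157 to 1.06 CPM in the other 6 rats. By edgeR the log2 fold change at 1.0 was 3.13 ± 0.6 (SE; adjusted p = 8.91e-05), and 4.42, again as a description, without those 4 rats. At 0.02 it was -1.57 ± 0.92 (edgeR adjusted p = 0.765); there the 8 rats lay between 0.144 and 1.21 CPM. Without MC508L alone it was -1.05, and without the 4 rats it was -0.28.

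Ggt1 was also low. It was 0.156, 0.452 and 0.76 CPM in furan controls (2 to 11 counts per rat) and 0.684, 2.02 and 3.26 CPM at 2.0. Of the 7 rats, 6 were above the highest control; ME086_L was not. By edgeR the log2 fold change was 2.23 ± 0.35 (SE; adjusted p = 3.04e-06), and 2.0 was above 0.5 by 1.45 ± 0.34 (adjusted p = 0.00121). Between 0.03 and 0.5 it was 0.21 ± 0.4, 0.57 ± 0.4 and 0.78 ± 0.39, none called by edgeR. In the 3-methylfuran experiment Ggt1 had 1 to 24 counts per rat. It was 0.0721, 0.392 and 0.596 CPM in controls and 0.115, 0.583 and 1.19 CPM at 1.0, where 4 of 8 rats were above the highest control and the lowest rat was within the control range. The difference of mean log2(CPM + 0.5) was 0.33 ± 0.2 (SE; exact two-sided permutation p = 0.118 over 12870 arrangements, n = 8 and 8). The difference did not pass the test.

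Afp behaved differently from the enzymes: the shift was small, and rats at the highest doses spread no more than for the median gene. The SD of log2(CPM + 0.5) was 0.18 at furan 2.0 and 0.08 at 3-methylfuran 1.0, beside 0.18 for the median gene. Furan controls were at 20.6, 23.1 and 25.6 CPM, rats at 0.5 at 21.9, 28.2 and 30.9 CPM, and rats at 2.0 at 31.0, 35.3 and 43.9 CPM. The groups at 2.0 and control did not overlap, although the fold was only 1.59. The share of all genes tested that separate in this way was not counted, here or for other members. The edgeR log2 fold change was 0.67 ± 0.08 (SE; adjusted p = 4.93e-08), with 0.2 ± 0.09 at 0.5 (adjusted p = 0.209). In the 3-methylfuran experiment controls were at 18.3, 20.9 and 24.4 CPM and rats at 1.0 at 29.8, 32.6 and 35.4 CPM, again without overlap. By edgeR the log2 fold change at 1.0 was 0.6 ± 0.06 (SE; adjusted p = 4.99e-10). At the lowest 3-methylfuran dose, 0.02, Afp was 23.2, 25.8 and 31.1 CPM and 6 of 8 rats stood above the highest control, while at 0.075 none did (19.7, 23.4 and 24.3 CPM). By edgeR the log2 fold change at 0.02 was 0.29 ± 0.06 with an adjusted p of 0.09, while DESeq2 gave an adjusted p of 0.0219, and 0.0235 is listed in the authors' deposited table. DESeq2 called 0.0727% of genes higher in that comparison, and 0.0968% of the genes in the authors' deposited table were below 0.05. The difference of 0.075 from 0.02 was -0.19 ± 0.06 and not called (edgeR adjusted p = 0.566). Without the 4 rats that stood apart for Gstp1, the value at 0.02 was 0.24 (edgeR adjusted p = 0.469). With libraries scaled by total count alone, the median of all genes tested shifted by 0.42 at furan 2.0 and 0.25 at 3-methylfuran 1.0, and Afp stood at 1.08 and 0.85 on that scale.

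Gpc3 rose with furan and not detectably with 3-methylfuran. In furan controls it was 0.156, 0.635 and 2.11 CPM, at 0.03 it was 0.527, 1.15 and 1.84 CPM, at 0.12 it was 0.468, 1.62 and 2.92 CPM, at 0.5 it was 0.422, 1.78 and 4.99 CPM, and at 2.0 it was 1.01, 3.44 and 6.14 CPM. The groups overlapped, and 5 of 7 rats at 2.0 were above the highest control, MC003_L. The edgeR log2 fold change at 2.0 was 1.97 ± 0.45 (SE; adjusted p = 0.000449). It was 0.97 ± 0.47 at 0.12 and 1.23 ± 0.47 at 0.5 (edgeR adjusted p = 0.339 and 0.147), and 2.0 did not differ detectably from 0.5 (0.74 ± 0.42, adjusted p = 0.179) or from 0.12 (1 ± 0.42, adjusted p = 0.0555). Gpc3 was 0.333, 1.44 and 2.02 CPM in 3-methylfuran controls and 0.48, 1.58 and 1.99 CPM at 1.0, with an edgeR log2 fold change of 0.23 ± 0.46 (adjusted p = 0.724). No rat at 1.0 was above the highest control.

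**Figure D2:**
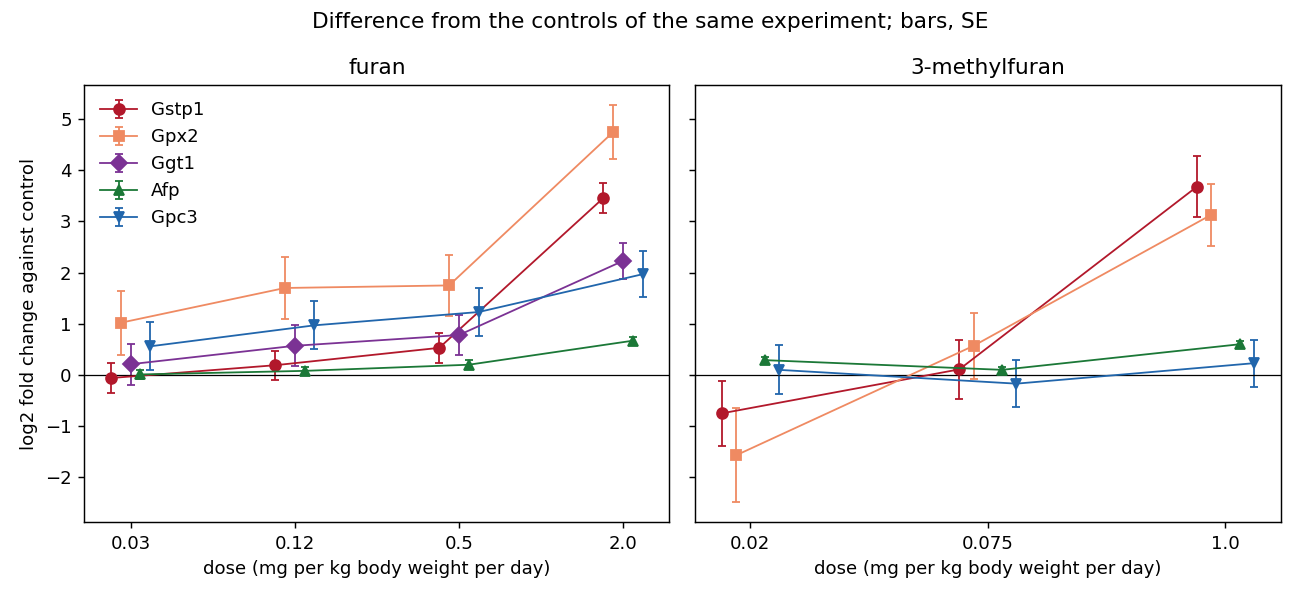
Log2 fold change of each gene against the controls of its own experiment (y axis) by dose in mg per kg body weight per day (x axis, equal steps), with SE bars; Ggt1 is absent for 3-methylfuran, where it failed the count filter. Values at the highest dose run from 0.67 (Afp) to 4.75 (Gpx2) for furan and from 0.23 (Gpc3) to 3.68 (Gstp1) for 3-methylfuran.

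In order of level, furan 2.0 was the highest group and the other furan groups could not be ordered for Gstp1, Gpx2, Ggt1 or Afp. By edgeR, furan 2.0 was above control, 0.03, 0.12 and 0.5 for each of these 4 genes. For Gpc3 it was above control and 0.03 (1.41 ± 0.43, adjusted p = 0.00667). Among all genes tested, 23.6%, 19.5% and 15.6% were called higher at 2.0 than at 0.03, 0.12 and 0.5. Between 0.12 and 0.03, 0.5 and 0.03, and 0.5 and 0.12, no member was called, beside 0.0707%, 0.998% and 0% of all genes. For 3-methylfuran, 1.0 was above each other group for Gstp1, Gpx2 and Afp, where 20.3% and 16.9% of all genes were called higher than at 0.02 and 0.075. Between 0.075 and 0.02 no member was called, beside 0.0335% of all genes, and Gpc3 levels of the 4 groups could not be ordered.

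At 3-methylfuran 1.0 rats that were high for one of the glutathione enzymes were high for the others. This was tested within the highest dose groups over 20 pairs of members, with Benjamini-Hochberg adjustment over them. At 3-methylfuran 1.0 (n = 8), Gpx2 and Ggt1 had Pearson r = 0.96 (exact permutation p = 0.000496, adjusted 0.00992) and Spearman rho = 0.95 (exact p = 0.00114). Gstp1 and Ggt1 had r = 0.89 (exact permutation p = 0.00176, adjusted 0.0117) and rho = 0.95 (exact p = 0.00114), and Gstp1 and Gpx2 had r = 0.88 (exact permutation p = 0.00164, adjusted 0.0117) and rho = 0.93 (exact p = 0.00223). Without ME587L and ME591L, the rats farthest from the median, r was 0.89, 0.91 and 0.85 for these pairs. ME587L and ME583L were the highest rats and ME591L the lowest for both Gstp1 and Gpx2. For Ggt1, ME587L was the highest and ME591L the lowest too.

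At furan 2.0 (n = 7), Gpx2 and Ggt1 had r = 0.92 (exact permutation p = 0.00714, adjusted 0.0357; rho = 0.86, exact p = 0.0238), and 0.75 without ME086_L and ME089_L. Gstp1 and Gpx2 had r = 0.9 (exact permutation p = 0.0321, adjusted 0.0918; rho = 0.71, exact p = 0.0881), and Gstp1 and Ggt1 r = 0.88 (exact permutation p = 0.0141, adjusted 0.0563; rho = 0.75, exact p = 0.0663). Without ME083_L and ME086_L these were 0.34 and 0.2, so the relation with Gstp1 at this dose rests on those rats. Afp went with Gpx2 at furan 2.0 (r = 0.81, exact permutation p = 0.0232, adjusted 0.0774; rho = 0.86, exact p = 0.0238) but did not pass the adjusted threshold. At 3-methylfuran 1.0 the same pair had r = -0.12 (exact permutation p = 0.756, adjusted 0.84; rho = -0.26, exact p = 0.536).

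Gstp1 and Gpx2 were also compared within each of the 9 groups, a family of 9 pairs added after seeing the data. Pearson r was 0.91 at furan 0.12 (permutation p adjusted over the 9 = 0.0335) and 0.9 at furan 0.5 (0.0167), with Spearman rho of 0.71 and 0.79 (permutation p adjusted = 0.13 for each). In 3-methylfuran controls and at 0.075 the rats fell into clusters of 6 and 2, so no pooled r is given; within the 6, r was -0.54 and 0.46. The rats at furan 0.12 also fell into clusters, with Gpx2 of 0.468 to 0.732 CPM or of 2.19 to 2.98 CPM. Gstp1 was 9.5 to 13.4 CPM in the low cluster and 16.7 to 19.7 CPM in the high cluster. The r of 0.91 spans both clusters and does not show a relation within either. Without the 2 farthest rats r was 0.87 at furan 0.12, where both were of the low cluster, and 0.78 at furan 0.5. In furan controls, at furan 0.03 and at 3-methylfuran 0.02, r was -0.41, -0.3 and -0.17 (permutation p adjusted = 0.398, 0.509 and 0.683). At furan 0.5, MD063_L, MD069_L and MD072_L were above all controls for Gstp1, Gpx2 and Ggt1, and at furan 0.12 the same was true of MB041_L, MB045_L and MB046_L.

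**Figure D3:**
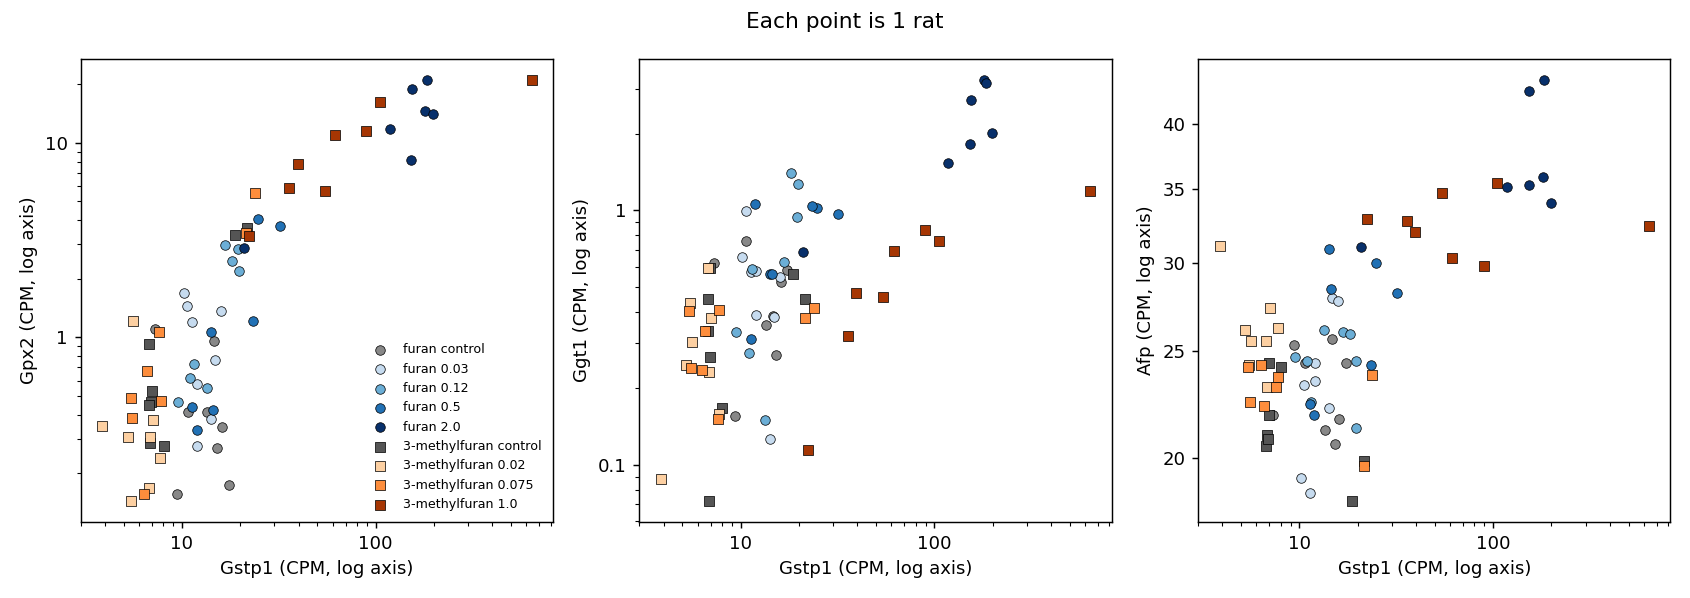
Gpx2, Ggt1 and Afp against Gstp1, each as CPM on log axes, with 1 point per rat (circles furan, squares 3-methylfuran) colored by dose group. Among 3-methylfuran rats Gpx2 follows Gstp1 from the high control rats near 20 CPM of Gstp1 up to the highest dose. Furan controls MC010_L and MC008_L, at 17.4 and 16.1 CPM of Gstp1, have 0.175 and 0.347 CPM of Gpx2. Afp at 3-methylfuran 1.0 stays between 29.8 and 35.4 CPM over a Gstp1 range of 22.3 to 638 CPM.

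At the highest doses the enzymes varied between rats more than most genes, and Afp did not. The SD of log2(CPM + 0.5) of Gstp1 was 1.13 at furan 2.0, above that of 99.6% of genes tested, and 1.46 at 3-methylfuran 1.0, above 100% after rounding. The median gene had an SD of 0.18 in both groups. Gpx2 had 0.91 and 0.82, and Ggt1 had 0.58 and 0.45. Afp had 0.18 and 0.08, above 48.7% and 6.6% of genes tested. In furan controls Gstp1 had an SD of 0.42 and Afp 0.12, beside a median of 0.19. In other groups the spread of the enzymes varied. Gstp1 had 0.23 at furan 0.03 (above 63.8% of genes) and Ggt1 had 0.18 at 3-methylfuran 0.075 (above 57% of genes). Wide spread was not limited to the highest doses: Gstp1 had 0.82 at 3-methylfuran 0.075 (above 99.6% of genes). Gpx2 had 1.03 at furan 0.5 and 1.12 at 3-methylfuran 0.075, more than at the highest doses. Low counts add to the spread of Gpx2, Ggt1 and Gpc3, so these percentages describe level as well as rats.

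**Figure D4:**
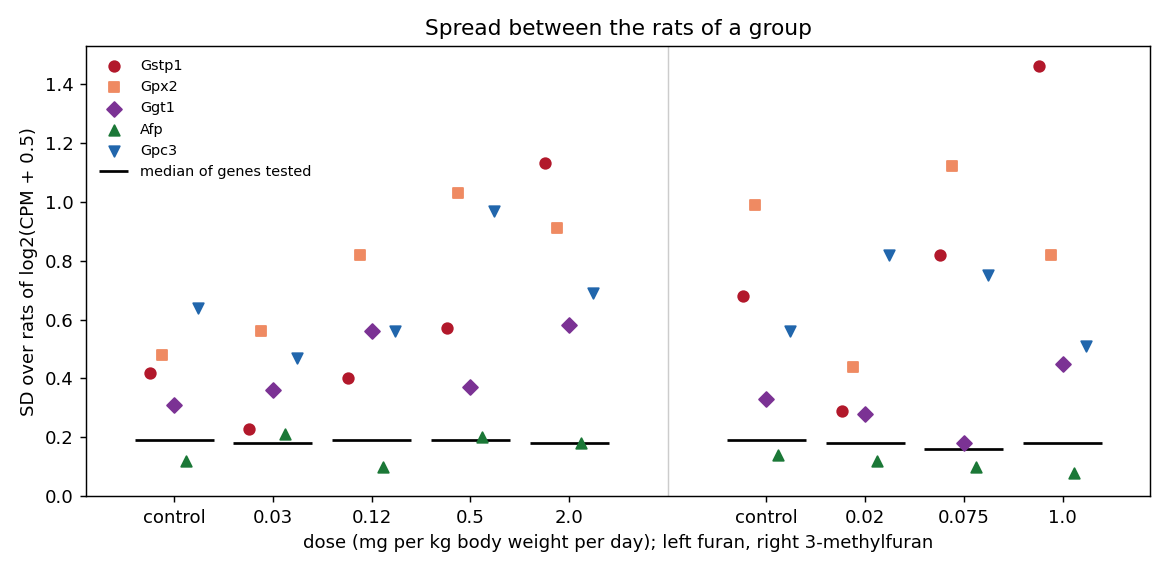
SD over rats of log2(CPM + 0.5) (y axis) for each of the 5 genes in each of the 9 groups (x axis, dose in mg per kg body weight per day), with the median of all genes tested as a line. Gstp1 stands at 1.13 at furan 2.0 and 1.46 at 3-methylfuran 1.0, beside a median of 0.18, and Afp stays at 0.21 or below.

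Most other focus markers tested were called higher at the same doses, while the NRF2 list at 3-methylfuran 1.0 came closer to the share of all genes. Both lists were chosen with earlier results of these data known. Beside them, 24% of all genes tested were called higher and 22.5% lower at furan 2.0, and 21.2% and 22.5% at 3-methylfuran 1.0. Of the 9 tested of the other focus markers, 8 were higher and 0 lower at furan 2.0 (median log2 fold change 2.4), and 7 were higher and 0 lower at 3-methylfuran 1.0 (median 1.33). Aldh1a7, an aldehyde dehydrogenase, rose by 5.04 ± 0.34 and 3.98 ± 0.6, and Abcc3, an export pump for glutathione and glucuronide conjugates, by 2.4 ± 0.2 and 2.69 ± 0.42. Akr7a3, the aflatoxin aldehyde reductase, rose by 2.99 ± 0.4 and 2.51 ± 0.5, and Cd24, a surface protein of progenitor cells, by 2.83 ± 0.22 and 1.81 ± 0.19. Of 16 NRF2 targets listed, 10 were found by symbol, and Nqo1, Srxn1, Hmox1, Osgin1, Pgd and Cbr1 were not. Those tested were higher for 6 of 10 and lower for 1 at furan 2.0 (median 0.38). At 3-methylfuran 1.0 they were higher for 3 of 9 and lower for 1 (median 0.16). Gsr, glutathione reductase, rose by 0.59 ± 0.09 and 0.47 ± 0.11, and Ugdh, which supplies glucuronic acid, by 0.68 ± 0.09 and 0.48 ± 0.14. Gclc, the catalytic subunit of glutathione synthesis, rose by 0.45 ± 0.13 and 0.58 ± 0.19. Gclm, its partner subunit, had 0.17 ± 0.16 and 0.13 ± 0.16 and was not called by edgeR in either. These called values have edgeR adjusted p under the 0.05 threshold.

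Of the factors known at the Gstp1 enhancer, 3 of 12 tested were higher and 3 lower at furan 2.0. At 3-methylfuran 1.0, 2 of 9 were higher and 4 lower. Among all genes tested, 24% were higher and 22.5% lower at furan 2.0, and 21.2% and 22.5% at 3-methylfuran 1.0. The counts at furan 2.0 are near these shares. Maff, a small MAF partner of NRF2, rose by 2.83 ± 0.46 and 1.11 ± 0.31. Fosl1, an AP-1 subunit, rose by 4.42 ± 0.84 at furan 2.0 (edgeR adjusted p = 5.24e-05). Cebpa, which holds hepatocytes in their mature state and is known to repress Gstp1, fell by 0.97 ± 0.13 and by 0.59 ± 0.1. Nfe2l2, the gene of NRF2, had -0.01 ± 0.12 at furan 2.0 (edgeR adjusted p = 0.96) and rose by 0.44 ± 0.1 at 3-methylfuran 1.0 (adjusted p = 0.000796).

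Relatives of the members moved in different directions. The shares of all genes tested were 24% higher and 22.5% lower at furan 2.0, and 21.2% and 22.5% at 3-methylfuran 1.0. Among the other glutathione peroxidases, 2 of 5 were higher and 1 lower at furan 2.0, and 1 was higher and 2 lower at 3-methylfuran 1.0. Gpx1, the common cytosolic form, fell by 0.57 ± 0.11 and 0.55 ± 0.1, while Gpx7 rose by 1.4 ± 0.24 and 1 ± 0.19. Gpx3, the secreted form, rose by 1.18 ± 0.3 at furan 2.0 and fell by 0.34 ± 0.11 at 3-methylfuran 1.0 (edgeR adjusted p = 0.00142 and 0.014). Of the other genes of glutathione breakdown, 0 of 6 were higher and 3 lower at furan 2.0, and 2 of 5 were higher and 1 lower at 3-methylfuran 1.0. Ggct, gamma-glutamylcyclotransferase, fell by 0.51 ± 0.1 and 0.47 ± 0.08. Gpc4 was the only other glypican tested and fell by 0.32 ± 0.06 and 0.2 ± 0.06.

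No gene of the list of Afp neighbours and regulators was called higher. Over all genes tested, 24% were higher and 22.5% lower at furan 2.0, and 21.2% and 22.5% at 3-methylfuran 1.0. Of the genes beside Afp in the albumin cluster and of its regulators, 0 of 9 were higher and 6 lower at furan 2.0 (median -0.47), and 0 were higher and 4 lower at 3-methylfuran 1.0 (median -0.26). Alb, albumin, fell by 0.55 ± 0.08 and 0.26 ± 0.06, and Gc, vitamin D binding protein, by 0.56 ± 0.08 and 0.42 ± 0.06. Zhx2, a known repressor of Afp in the adult, had -0.13 ± 0.1 at furan 2.0 (edgeR adjusted p = 0.284) and fell by 0.45 ± 0.11 at 3-methylfuran 1.0 (adjusted p = 0.000858). Zbtb20, another repressor, was not called in either (edgeR adjusted p = 0.929 and 0.146). Of the other oncofetal genes, 3 of 7 tested were higher and 1 lower at furan 2.0, and 1 of 5 was higher and 2 lower at 3-methylfuran 1.0. Spink1, a trypsin inhibitor, rose by 1.12 ± 0.32 and 1.21 ± 0.27, and Prom1 and Tspan8, surface proteins of progenitor cells, rose at furan 2.0 by 2.49 ± 0.4 and 2.45 ± 0.32. Igf2bp3 fell by 0.79 ± 0.12 and 0.5 ± 0.08.

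Bile duct and proliferation markers were called higher in a larger share than all genes tested at both highest doses, and other lists varied. Of all genes tested, 24% were called higher and 22.5% lower at furan 2.0, and 21.2% and 22.5% at 3-methylfuran 1.0. The macrophage list did not exceed these shares. The bile duct list had 7 of 9 tested higher and 1 lower at furan 2.0, with a summed level of 45.9 to 116 CPM beside 38.4 to 48.4 CPM in controls. At 3-methylfuran 1.0 it had 3 of 6 higher and 1 lower, with 43.3 to 60.8 CPM beside 32.4 to 41.7 CPM. Within furan 2.0, ME086_L and ME089_L had the lowest sums (45.9 and 47.7 CPM); Gstp1 in ME089_L was 153 CPM. The 8 proliferation markers were all higher at both doses, with sums of 38.4 to 114 CPM beside 10.5 to 41.9 CPM for furan and 34.9 to 69.2 CPM beside 5.38 to 27.7 CPM for 3-methylfuran. Hepatocyte markers were lower for 5 of 6 and higher for 1, Apoa1, at both. Stellate cell markers were higher for 6 of 10 and lower for 1 at furan 2.0, and 0 of 9 were called at 3-methylfuran 1.0. The gut list, which bears on Gpx2, had 1 of 2 tested higher and 1 lower at furan 2.0, with a sum of 177 to 229 CPM beside 186 to 320 CPM in controls, and 1 of 2 tested higher at 3-methylfuran 1.0. Agr2 of that list was at 0 in both control groups, at furan 0.03 and 0.12 and at 3-methylfuran 0.02 and 1.0, but not at furan 2.0. Macrophage markers were higher for 2 of 9 tested at furan 2.0 (Trem2 and Gpnmb) and for 1 of 8 at 3-methylfuran 1.0 (Gpnmb), with 0 lower at both; their sums were 241 to 601 CPM beside 290 to 535 CPM and 164 to 352 CPM beside 190 to 269 CPM. Endothelial markers were lower for 2 of 4 at furan 2.0 (Clec4g and Kdr) and for 1 of 4 at 3-methylfuran 1.0 (Clec4g), with 0 higher at both; their sums were 86.6 to 169 CPM beside 42.5 to 215 CPM and 41.7 to 92.8 CPM beside 54.7 to 101 CPM. The part of these cells in the members' values was not tested.

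The genes most like each member over all rats were named by the smaller of its 2 Pearson r, over 38 furan and 32 3-methylfuran rats, as a description without a test; points of a group share its dose. Gstp1 was nearest to Abcc3 (r = 0.94 and 0.95), Aldh1a7 (0.94 and 0.92), Sort1 (0.94 and 0.91), Anxa7 (0.92 and 0.9) and Gpx2 (0.9 and 0.94). Gpx2 was nearest to Abcc3 (0.95 and 0.97), followed by Anxa4, Anxa7, Akr7a3 and Pabpc4, each at 0.91 or more in both. The control rats MC508L and MC511L had 11 and 9.51 CPM of Abcc3, beside 2.23 to 4.17 CPM in the other controls. MB549L and MB551L had 9.26 and 13.2 CPM, beside 1.82 to 3.36 CPM in the other rats at 0.075. Afp was nearest to Erich5 (0.86 and 0.85), then Apoa1, Eif2s3, Ica1 and Ifi30. Over the 15 rats of the highest doses, after taking away group means, Gstp1 was nearest to Ugt1a9 (r = 0.95), Abcc3 (0.94), L3mbtl2 (0.93), Sort1 (0.92) and Gsr (0.92).

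The genes nearest to Gpc3 were different ones. Its nearest gene was Msln, mesothelin, a surface protein of the mesothelium that covers the liver (r = 0.91 over 38 furan rats and 0.85 over 32 3-methylfuran rats), followed by Prph, AABR07069371.1, Spock2 and Anxa1. Msln was 1.33, 2.52 and 12.4 CPM in furan controls and 4.48, 15.1 and 26.9 CPM at 2.0, a rise of 1.5 ± 0.54 (edgeR adjusted p = 0.0212). The control rat with the most Gpc3, MC003_L (2.11 CPM), also had the most Msln (12.4 CPM). At furan 0.5 MD063_L was highest for both (4.99 and 23.7 CPM), and at 2.0 ME082_L was (6.14 and 26.9 CPM). At 3-methylfuran 0.02 it was MA524L (4.15 and 10.2 CPM). A list of 6 mesothelial markers, chosen after Msln was seen, summed to 2.81 to 20.6 CPM in furan controls and 6.3 to 38.7 CPM at 2.0, with Msln the 1 of 5 tested that was called. At 3-methylfuran 1.0 the sum was 2.77 to 8.45 CPM beside 4.16 to 14.6 CPM in controls, and 0 of 4 were called. Its part in the Gpc3 result was not tested.

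**Figure D5:**
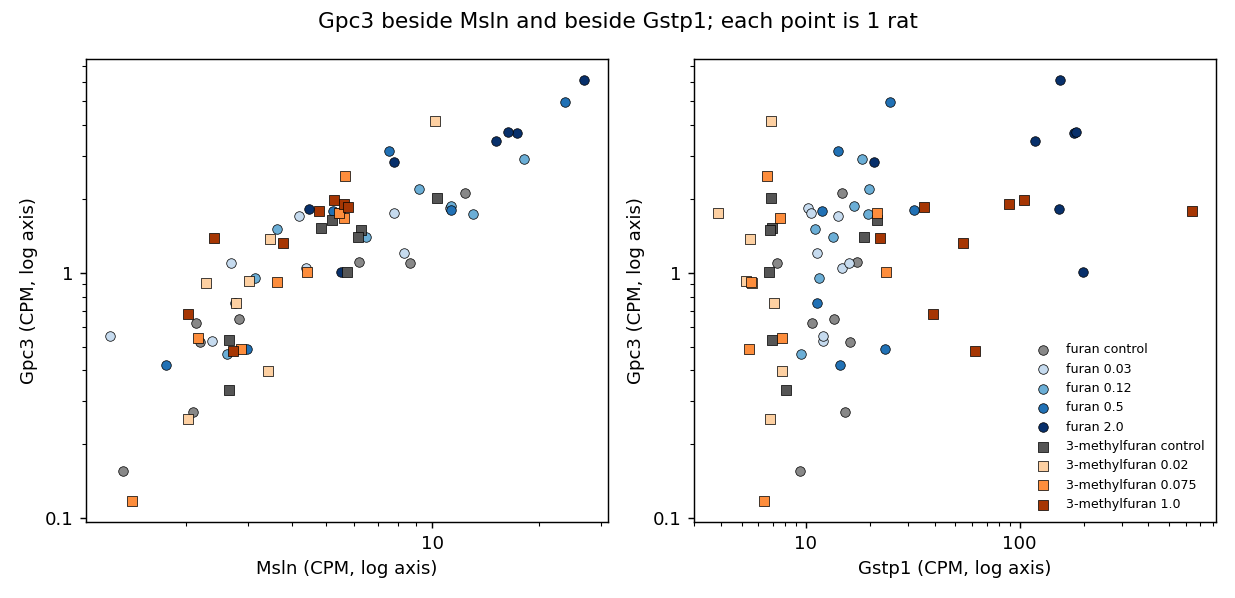
Gpc3 (y axis) against Msln (left) and against Gstp1 (right), each as CPM on log axes, with 1 point per rat (circles furan, squares 3-methylfuran) colored by dose group. Gpc3 and Msln run together across all groups, from control MC003_L at 2.11 and 12.4 CPM to ME082_L at 6.14 and 26.9 CPM, while rats with 22.3 to 638 CPM of Gstp1 at 3-methylfuran 1.0 have 0.48 to 1.99 CPM of Gpc3.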

How the data were processed

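Rat liver mRNA was sequenced by the authors, with TruSeq Stranded mRNA libraries for 3-methylfuran and a later stranded kit for furan, per the labels' protocols. The submitters' processing notes list the build Rnor 6.0 and, without their roles, featureCounts 2.0.0, STAR 2.7.1a and DESeq2 1.26.0. Strand counting and multimapping were not stated there. RefSeq lists 4 Gstp1 pseudogenes, so reads shared with such copies make the Gstp1 counts uncertain. The deposited count tables hold raw counts per gene and run, made by the authors without normalization. For furan the authors' deposited comparisons are signed fold changes, and for 3-methylfuran a plain ratio or fold; both give the authors' adjusted p-value.

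Runs were summed per rat (2 for furan, 3 for 3-methylfuran); runs of a rat agreed within a chi-square per degree of freedom of 1.0 to 1.07, beside at least 6.15 between rats. Control rats were assigned to an experiment by their titles, and doses came from the labels. Counts were fitted in R 4.3.3 with edgeR 4.0.16 (TMM, filterByExpr with minimum count 10, robust quasi-likelihood), 1 fit per experiment with 1 coefficient per group, so all doses share their control rats. SE is the log2 fold change divided by the root of F. The fit was also run on simulated counts with 200 changed genes. Far more genes were called at the highest doses, so the simulation does not speak to the scaling there. A pseudocount of 0.5 was used for log2 CPM values in pairs, spreads and likeness. Alternatives were DESeq2 1.42.0, limma 3.58.1 voom, other scalings and filters, run 1 only, 2 groups only, each rat left out, and other pseudocounts. A pair of uncalled values of opposite sign were not counted as a reversal.

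The members and all lists were chosen with earlier results of these data known. Named genes were the members, list genes (first those with the smallest adjusted p) and the genes most like a member. Of 139 list symbols, 19 were not found, among them Nqo1 and Hmox1. Coordinates come from RefSeq GRCr8 promoters only.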

Additional observations from a re-analysis of the deposited data

Results flagged for a closer look

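The highest and lowest rat of each of the 45 combinations of 5 genes and 9 groups were compared with their group, and 4 stood apart by Dixon's criterion. For normally distributed values chance alone gives about 1 such flag in 20 groups. The criterion was applied to CPM without logs, and low counts are skewed, so chance flags can be more frequent here. Gstp1 in ME587L, at 3-methylfuran 1.0, was 638 CPM beside 105 CPM in the next rat. Gpx2 in MA532L, at 3-methylfuran 0.02, was 1.21 CPM beside 0.376 CPM in the next. Gpc3 in MA524L, in the same group, was 4.15 CPM beside 1.76 CPM in the next, and Msln was also highest in that rat. Afp in MB551L, at 3-methylfuran 0.075, was the lowest of its group at 19.7 CPM, beside 22.3 CPM in the next. Groups with a pair of high rats, such as Gstp1 in 3-methylfuran controls, are not found by a criterion for single rats.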

How the results depend on the processing

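No paired analysis was possible because the groups share no replicate numbers: each rat has a number of its own. Over 762 refits of the members' fold changes, 757 kept their side of the threshold. The sign changed in 16 refits of 6 values, all at lower doses and with 0 called before or after: Gpc3 at 3-methylfuran 0.02 went from 0.1 to -0.42 without MA524L and to -0.1 by limma voom, and Gpx2 and Gstp1 at 0.075 went from 0.57 to -0.09 and from 0.11 to -0.18 without MB549L. Those that crossed the threshold became called: with DESeq2, Afp at 3-methylfuran 0.02 (0.28) and Gpx2 at furan 0.12 (1.74) and 0.5 (1.76), and Afp at 0.02 also without control MC502L or MC503L (0.32 each, adjusted p = 0.0274 and 0.0296 by edgeR). Leaving out 1 rat gave 0.25 to 0.32 for Afp at that dose, 2.51 to 3.93 for Gstp1 and 2.89 to 3.65 for Gpx2 at 3-methylfuran 1.0, and 3.37 to 3.65 and 4.61 to 5.02 at furan 2.0. Without the 2 farthest rats, the 4 pairs past the threshold no longer passed it after adjustment over 20 pairs with 5 or 6 rats left: r was 0.75 for Gpx2 and Ggt1 at furan 2.0, and 0.85, 0.91 and 0.89 at 3-methylfuran 1.0. Ggt1 at 3-methylfuran 1.0 gave 0.22 and 0.57 with pseudocounts 1 and 0.1 (exact permutation p = 0.107 and 0.15).

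The count of all genes called moved by over 1.5 times in some settings. Scaled by total count alone, furan 2.0 had 9451 called (8678 higher, 773 lower) beside 5923 (3054 and 2869), and 3-methylfuran 1.0 had 7004 (6081 and 923) beside 5207 (2527 and 2680). DESeq2 called 49, 18 and 283 genes at furan 0.03 and 3-methylfuran 0.02 and 0.075, where edgeR called 9, 4 and 163; limma voom called 0 and 2 at furan 0.03 and 3-methylfuran 0.02. Without a filter, edgeR called 1, 151, 249 and 106 at furan 0.03, 0.12, 0.5 and 3-methylfuran 0.075, beside 9, 247, 402 and 163. Fits of 2 groups only called 0, 0 and 95 at furan 0.03 and 3-methylfuran 0.02 and 0.075, and run 1 only called 2 and 0 at furan 0.03 and 3-methylfuran 0.02. Leaving out 1 rat gave 0 to 62 at furan 0.03, 105 to 379 at 0.12, 261 to 429 at 0.5, and 1 to 11 and 103 to 193 at 3-methylfuran 0.02 and 0.075. Without the 4 high rats, 0 and 54 were called at 3-methylfuran 0.02 and 0.075. Low counts of Ggt1, Gpx2 and Gpc3 limit what lower doses can show, and kit and compound cannot be told apart.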

Other observations

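Dlk1 and Gpc1 were too low for the tests and had more reads at furan 2.0 than in its controls. Dlk1, a fetal liver surface protein, had 0 counts in all 8 furan controls and 100 counts over the 7 rats at 2.0 (highest 1.82 CPM). It had 1 count over the 8 rats at 3-methylfuran 1.0. Gpc1, a glypican, had 0.102 ± 0.0706 CPM in furan controls and 0.845 ± 0.615 CPM at 2.0 (SD, n = 8 and 7), beside 0.136 ± 0.0949 and 0.362 ± 0.154 CPM for 3-methylfuran controls and 1.0 (n = 8 and 8). These values were not tested and were chosen after they were seen.

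Spp1, osteopontin, and Sox9, both of the bile duct list, were called at furan 2.0 (5.15 ± 0.94 and 2.77 ± 0.43, edgeR adjusted p = 3.19e-05 and 2.18e-06). At 3-methylfuran 1.0 they were at 0.32 and 0.141 CPM (medians), too low for the test, while Epcam of the same list rose by 1.61 ± 0.17 at furan 2.0 and 1.69 ± 0.12 at 3-methylfuran 1.0. The difference between the compounds was not tested.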
